A study of Mus musculus with 10 samples.

Results

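Complement components and regulators were described here through 8 genes chosen by symbol: C3, C4b, C2, Cfb, Cfi, Serping1, Cd55 and Cd59a. They are 8 of the 24062 genes in the deposited count matrix, and all 8 were among the 15547 genes that passed the filter on low counts. The study sequenced polyadenylated RNA from the kidneys of adult male mice, and its question, from its title, was how loss of EHHADH affects the kidney. Ehhadh encodes a peroxisomal bifunctional enzyme of fatty acid beta-oxidation. The groups were 4 Ehhadh knockout (KO) animals of C57BL/6N, 1 DBA_2J animal and 1 129S2_SvPasCrl animal with wild-type Ehhadh, and 4 wild-type (WT) animals of C57BL/6N. The labels do not give how the knockout allele was made, in which cells it acts, or the ages beyond adult.

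Complement is a cascade of plasma and membrane proteins that tags surfaces for removal, recruits leukocytes and can pierce membranes. The classical and lectin pathways cut C4 and C2 to form one C3 convertase, the alternative pathway uses C3b and factor B to form another, and both cut C3. Fluid-phase and membrane regulators take the convertases apart or block the terminal pore. Most circulating complement comes from the liver, and kidney tubule cells are a known local source of C3.

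In KO kidneys C2 and C3 rose, and the other 6 members did not pass the test. C2 averaged 119 ± 14.7 CPM (reads of the gene for each M of all counted reads, with TMM scaling between libraries) in KO kidneys and 62.5 ± 4.44 in WT kidneys (SD, n = 4 each). C3 averaged 90.6 ± 23.4 CPM in KO kidneys and 53.1 ± 14.7 in WT kidneys (SD, n = 4 each). The call was an adjusted p under 0.05 in edgeR's quasi-likelihood test with Benjamini-Hochberg adjustment over the 15547 genes. By that rule 2 of the 8 members were higher in KO and 0 were lower, where 6.32% of all genes tested were higher and 4.68% lower, or 11.0% in either direction. At an unadjusted p under 0.05, 3 members were higher and 1 (Cfb) was lower. DESeq2 and limma voom each called 2 members higher and that 1 lower. Over all genes DESeq2 called 1301 higher and 1087 lower, and limma voom 938 and 731, against 982 and 728 in edgeR. The median log2 fold change of the members was 0.25, beside a median of -0.01 over all genes tested.

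Of the 8 genes, 4 lie on chromosome 17 of the mm10 build, all on the minus strand in the annotation the authors counted with. C4b (chr17:34728381-34743897), Cfb (chr17:34856374-34862514) and C2 (chr17:34862602-34882100) fall within 153.7 kb, in the major histocompatibility complex class III region. Cfb and C2 are a tandem pair with a gap of 87 bases. C3 (chr17:57203973-57228136) lies 22.32 Mb further along. Cfi is at chr3:129836739-129875328 on the plus strand, Cd59a at chr2:104095801-104115410 on the plus strand, Serping1 at chr2:84765360-84775429 on the minus strand and Cd55 at chr1:130439030-130462740 on the minus strand. Counting ignored strand and gave a read to every gene it overlapped, but no exon of a member overlapped an exon of another annotated gene.

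Near-identical copies limit what counts of some members mean. The transcripts of C4b and its neighbour C4a were 96.15% identical over 5357 aligned bases (GENCODE vM21, GRCm38), and 16.5% of the 100-base windows of C4b, each as long as a read here, occurred unchanged in C4a. Reads in those windows cannot be assigned to either copy by sequence, so the counts of both genes are uncertain. A stretch of exon 21 of C4b (chr17:34735430-34735489, minus strand) is shown with the matching stretch of C4a. It was picked as the 60-base coding stretch within a single exon where the copies differ most, so it is not typical. Capitals mark the 13 bases at which the copies differ, read 5′ to 3′ on the coding strand.
C4b: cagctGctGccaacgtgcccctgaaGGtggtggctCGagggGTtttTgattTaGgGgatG
C4a: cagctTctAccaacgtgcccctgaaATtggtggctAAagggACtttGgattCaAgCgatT
Cd55 shared 5.5% of such windows with Cd55b, and Cd59a shared 0.293% with Cd59b. C2 and Cfb shared no window, at 58.98% identity over 2265 aligned bases.

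Promoter sequence from RefSeq (GRCm38.p6) was at hand for 3 of the 8 members, C3, Cd55 and Cd59a. The 250 bases before the annotated start of C3, which was higher in KO, are shown with those of Cd55, a regulator that did not pass the test. Capitals mark matches to TTNNGNAA, a degenerate form of the C/EBP motif. C/EBP factors are known from liver for driving acute-phase genes.
C3: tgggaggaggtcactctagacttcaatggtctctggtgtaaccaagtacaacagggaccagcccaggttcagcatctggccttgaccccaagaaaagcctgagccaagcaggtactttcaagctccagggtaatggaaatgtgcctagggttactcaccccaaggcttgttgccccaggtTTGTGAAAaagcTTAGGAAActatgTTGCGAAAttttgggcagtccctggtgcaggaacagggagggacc
Cd55: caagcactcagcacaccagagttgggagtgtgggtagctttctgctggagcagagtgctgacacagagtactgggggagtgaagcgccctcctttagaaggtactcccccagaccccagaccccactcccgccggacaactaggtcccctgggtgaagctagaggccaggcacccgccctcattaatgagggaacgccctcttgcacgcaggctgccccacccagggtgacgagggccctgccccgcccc
The C3 stretch (chr17:57228137-57228386, minus strand) held 3 matches, all on the coding strand, at 70 to 63, 58 to 51 and 45 to 38 bases before the start. The Cd55 stretch (chr1:130462745-130462994, minus strand) held no match and was 64.0% G and C, against 52.0% for C3. Over 32851 mouse promoters of the same length, 36.8% held at least 1 match on either strand. The share with 3 matches was not counted, and any link between the matches and the level of C3 was not tested. On both strands the gamma-activated sequence TTCNNNGAA (in 7.02% of promoters), the core interferon response element GAAANNGAAA (2.98%), TATAAA (12.4%) and the NF-kappaB consensus (7.25%) were also searched. None of these was in the C3 or Cd55 stretch, and the Cd59a stretch held 1 core interferon response element and no match to the others. No search motif shared letters with another match.

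The targeted gene followed the labels. Ehhadh had 282, 327, 246 and 175 CPM in KO kidneys, against 3418, 2212, 2088 and 2185 CPM in WT kidneys, a log2 difference of -3.26 in the edgeR fit (SE 0.21, adjusted p 1.86e-05), and 9251 to 14299 reads remained per KO library. The DBA_2J library had 796 CPM and the 129S2_SvPasCrl library 788 CPM, both below every WT library. Totals ran from 41.5 to 52.3 M counts in KO libraries and from 19.8 to 36.0 M in WT libraries (exact permutation test, two-sided, p = 0.0286, the smallest that 4 against 4 can give). Depth and genotype therefore moved together, and the calls of C2 and C3 were kept when every library was thinned to 19.8 M counts. The biological coefficient of variation was 12.3%. Titles came in a form with a leading E and a form without, with 2 KO and 2 WT animals in each. The labels do not say what the forms mark. KO and WT titles never open with the same number, and genotype cannot be told apart from whatever that number stands for.

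**Figure D1:**
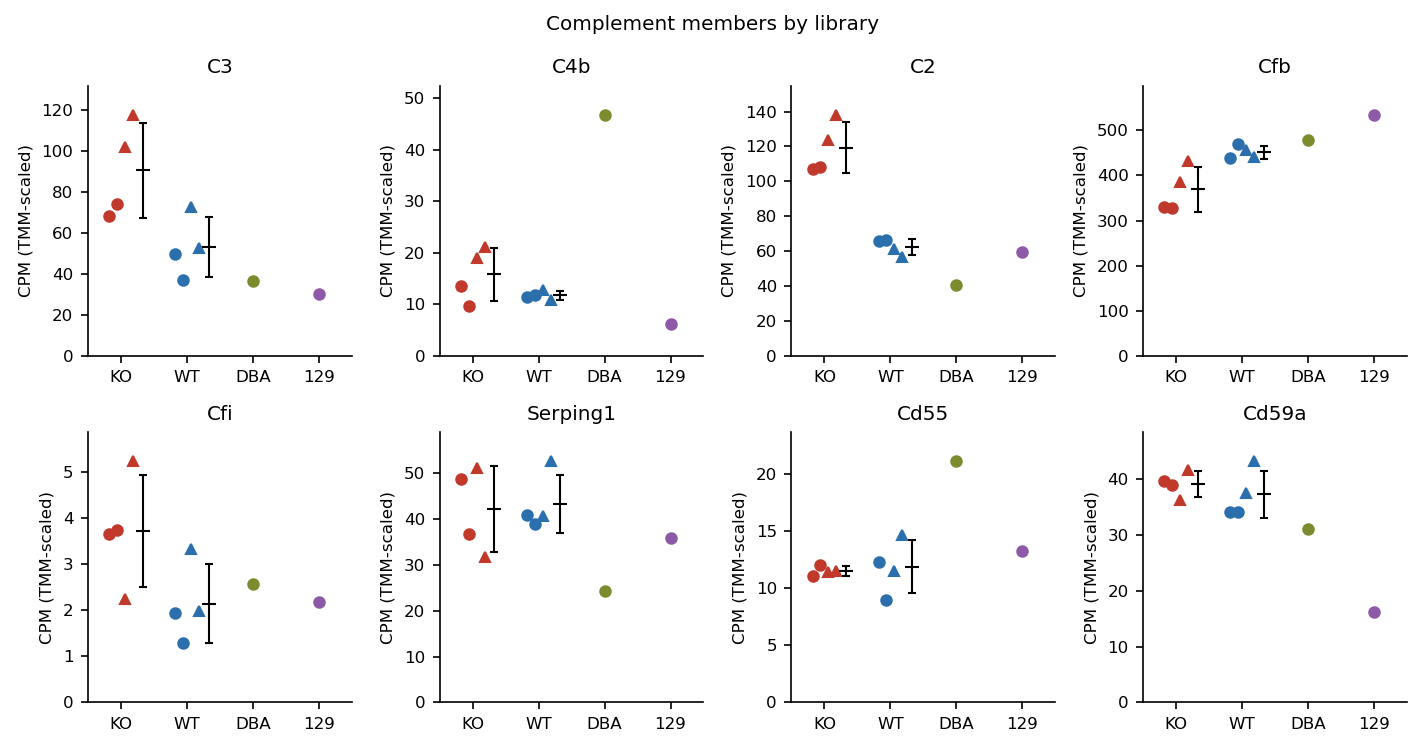
Each panel shows 1 member in CPM (TMM-scaled over the 10 libraries) for the KO, WT, DBA_2J (DBA) and 129S2_SvPasCrl (129) libraries. Triangles are animals whose title has a leading E, circles all others, and bars give the mean ± SD of the 4 KO or 4 WT libraries. The C2 points of KO lie above all others, the Cfb points of KO lie below all others, and C4b is highest in DBA_2J at 46.7 CPM.

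C2, a serine protease precursor that supplies the catalytic part of the classical and lectin C3 convertase, had the smallest p among the members. It had 107, 108, 124 and 138 CPM in KO kidneys, against 65.6, 66.4, 61.3 and 56.8 CPM in WT kidneys. All 4 KO values lay above all 4 WT values, and the WT libraries stayed within a narrow band. In edgeR the gene was 1.91-fold higher, 0.94 on the log2 scale (SE 0.09), at an adjusted p of 0.000124, rank 41 of the 15547 genes by p. Leaving out any 1 library kept the call, with log2 fold changes of 0.86 to 0.98. The difference in mean log2 CPM was 1.15 in animals with a leading E and 0.71 in those without. The interaction term for C2, which tests the difference between these in edgeR, was 0.44 (SE 0.11, unadjusted p 0.00314, adjusted p 0.593). By adjusted p 0 of the 15547 genes passed that test, with 6.46% at an unadjusted p under 0.05.

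C4b, the mouse C4 whose fragment anchors that convertase to a surface, had 13.5, 9.69, 19.0 and 21.1 CPM in KO kidneys, against 11.5, 11.8, 12.9 and 10.8 CPM in WT kidneys. The groups overlapped, since KO replicate 2 was the lowest of the 8 libraries and KO replicates 3 and 4 the highest. The fitted log2 difference was 0.43 (SE 0.20), and its adjusted p in edgeR was 0.198. Without KO replicate 2 it was 0.61 with an adjusted p of 0.0325. The difference in mean log2 CPM was 0.77 in animals with a leading E and -0.02 in those without. An edgeR fit of the animals without a leading E alone gave -0.00188 (adjusted p 0.997). The interaction term for C4b was 0.76 (SE 0.24, unadjusted p 0.0096, adjusted p 0.674 in edgeR).

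C3, on which all 3 pathways meet, had 68.2, 74.3, 102 and 118 CPM in KO kidneys, against 49.6, 37.2, 72.8 and 52.5 CPM in WT kidneys. KO replicate 1 lay below WT replicate 3, the only crossing between the groups. In edgeR this was 1.71-fold, 0.77 on the log2 scale (SE 0.20), at an adjusted p of 0.0347. This call was a narrow one: without KO replicate 3 the adjusted p was 0.0758, without KO replicate 4 it was 0.0711, and without WT replicate 1, 2 or 4 it was 0.0845, 0.0778 or 0.068. Within each title form both KO values lay above both WT values. Fitted alone, the difference was 0.81 (adjusted p 0.0895) in the animals with a leading E and 0.73 (adjusted p 0.00161) in those without. With title form as a term the adjusted p was 0.00178. The form itself had a log2 difference of 0.58 for C3 (SE 0.11, unadjusted p 0.000394, adjusted p 0.11), higher with a leading E, and 0.0193% of all genes passed that test.

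Cfb, factor B of the alternative pathway and the most abundant member, had 331, 327, 387 and 432 CPM in KO kidneys, against 438, 470, 456 and 441 CPM in WT kidneys. All 4 KO values lay below all 4 WT values, by a gap that was small between KO replicate 4 and WT replicate 1. The log2 fold change was -0.29 (SE 0.09) with an adjusted p of 0.0554 in edgeR, just over the threshold. DESeq2 gave an adjusted p of 0.0187, limma voom 0.0469 and edgeR with title form as a term 0.029. In edgeR the adjusted p stayed over the threshold with RLE in place of TMM (0.0563), library totals (0.0756) and no filter (0.0618). A filter at 1 CPM gave 0.0507, and a fit of all 10 libraries gave 0.0561. Without KO replicate 4 the log2 fold change was -0.37 (adjusted p 0.00807), and without any other single library the adjusted p ran from 0.0762 to 0.146. In the animals with a leading E alone it was -0.13 (adjusted p 0.543), and in those without one -0.46 (adjusted p 0.00115). The interaction term for Cfb was 0.33 (unadjusted p 0.0161, adjusted p 0.703). For C2 and Cfb alone among the members the groups were fully apart, 1 in each direction. Of all genes tested, 17.7% were apart in this way, 9.53% higher and 8.18% lower in KO.

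C2 and Cfb are adjacent, and their fold changes had opposite signs. The ratio of their counts within a library is not touched by scaling between libraries. The ratio was chosen after the values were seen, so it is given as a description with no test. The ratio was 0.324, 0.330, 0.320 and 0.319 in KO kidneys, against 0.150, 0.141, 0.134 and 0.129 in WT kidneys. The KO libraries spread less than the gap to the nearest WT library, although their C2 and Cfb levels each varied. The mean log2 ratio was -1.63 ± 0.02 in KO kidneys and -2.85 ± 0.09 in WT kidneys (SD, n = 4 each), a difference of 1.22 or 2.34-fold. The difference was 1.28 in animals with a leading E and 1.17 in those without. The DBA_2J library had a ratio of 0.0848 and the 129S2_SvPasCrl library 0.112, both under every WT library.

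**Figure D2:**
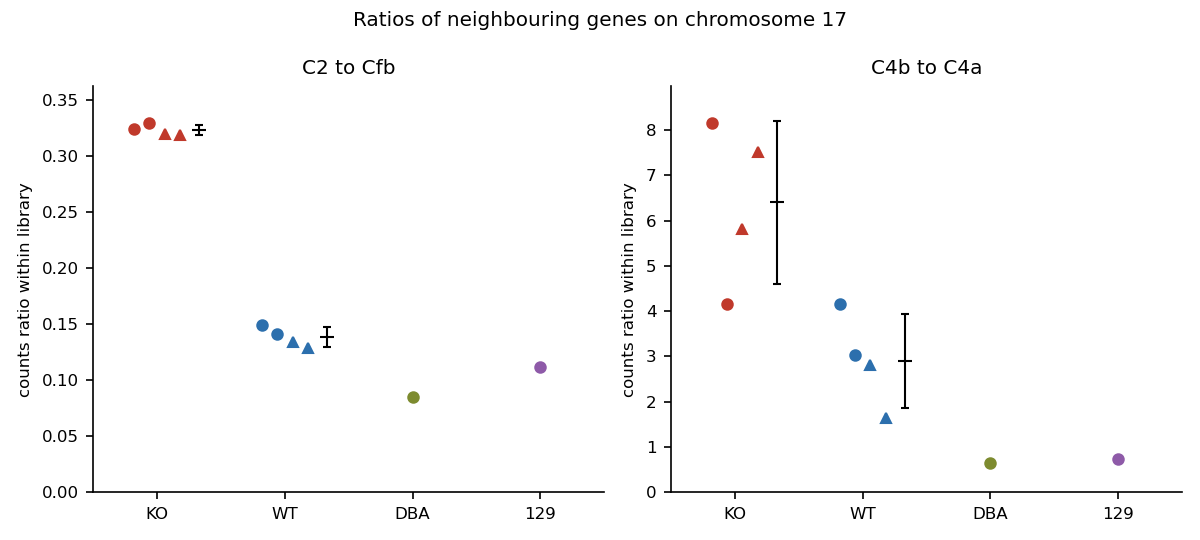
Count ratios of C2 to Cfb (left) and of C4b to C4a (right) within each KO, WT, DBA_2J (DBA) and 129S2_SvPasCrl (129) library, on linear axes that start at 0. Triangles are animals with a leading E in the title, and bars give the mean ± SD of 4 libraries. The C2 to Cfb ratio of KO libraries lies between 0.319 and 0.330, above all others, while the C4b to C4a ratios of KO and WT meet near 4.15 and 4.17.

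The same ratio for the copies C4b and C4a was 8.15, 4.15, 5.81 and 7.51 in KO kidneys, against 4.17, 3.02, 2.81 and 1.63 in WT kidneys. KO replicate 2 lay just below WT replicate 1, and the other KO libraries lay above every WT library. The difference in mean log2 ratio was 1.17, or 2.25-fold, again as a description with no test. C4a, known in mouse as sex-limited protein, averaged 2.52 ± 0.69 CPM in KO kidneys and 4.46 ± 1.60 CPM in WT kidneys (SD, n = 4 each), and its log2 difference in edgeR was -0.83 (SE 0.27) with an adjusted p of 0.0721. Where the aligner placed reads that match both copies is not given, and their part in this ratio was not tested.

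Among the regulators in fluid, Cfi encodes factor I, the protease that cuts C3b and C4b with the help of a cofactor. It was the scarcest member, with 3.65, 3.74, 2.24 and 5.23 CPM in KO kidneys, against 1.94, 1.29, 3.33 and 1.99 CPM in WT kidneys. These rest on 104 to 276 reads per KO library and 38 to 121 per WT library, and the groups crossed at KO replicate 3 and WT replicate 3. Its log2 difference of 0.79 (SE 0.31) had an adjusted p of 0.126 in edgeR, and was as large as that of C3 but less precise. It was 0.49 (adjusted p 0.643) in the animals with a leading E alone and 1.23 (adjusted p 0.0169) in those without one.

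Serping1, the C1 inhibitor that inactivates C1r, C1s and the lectin-pathway proteases, had 48.7, 36.7, 51.1 and 31.8 CPM in KO kidneys, against 40.8, 38.8, 40.7 and 52.5 CPM in WT kidneys. KO held both the lowest and the second highest value, so the groups were interleaved. The log2 fold change was -0.03 (SE 0.15, adjusted p 0.917 in edgeR).

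Neither membrane regulator was called. Cd55, decay-accelerating factor, which pulls C3 convertases apart, had 11.03, 12.0, 11.4 and 11.5 CPM in KO kidneys, against 12.3, 8.996, 11.5 and 14.7 CPM in WT kidneys. All KO values lay inside the WT range, and the log2 fold change was -0.04 (SE 0.13), with an adjusted p of 0.879 in edgeR. Cd59a, which keeps C9 from completing the membrane pore, had 39.6, 38.9, 36.2 and 41.7 CPM in KO kidneys, against 34.1, 34.2, 37.6 and 43.2 CPM in WT kidneys. All KO values again lay inside the WT range, and the log2 fold change was 0.07 (SE 0.08), with an adjusted p of 0.634 in edgeR.

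Levels between genes were compared per length, as TPM (transcripts per M, so that each library sums to the same total), from the deposited counts and exon lengths. In WT kidneys Cfb stood first at 318 ± 8.60 TPM, followed by Serping1 at 46.0 ± 6.89, C2 at 45.8 ± 3.06, Cd59a at 38.7 ± 4.61, C3 at 20.04 ± 5.61, Cd55 at 9.12 ± 1.84, C4b at 4.21 ± 0.307 and Cfi at 2.001 ± 0.803 TPM (SD, n = 4). The ranges of Serping1 and C2 overlapped, as did those of C2 and Cd59a, and every other pair of neighbours was apart. In KO kidneys C2 stood second at 91.0 ± 12.6 TPM, above the range of Serping1 at 46.5 ± 9.88 TPM and below that of Cfb at 271 ± 40.7 TPM. C3, at 35.6 ± 9.70 TPM in KO kidneys, overlapped Cd59a at 42.2 ± 2.92 TPM there. C4b at 5.92 ± 2.01 TPM and Cfi at 3.62 ± 1.24 TPM overlapped each other in KO kidneys and were apart in WT kidneys.

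**Figure D3:**
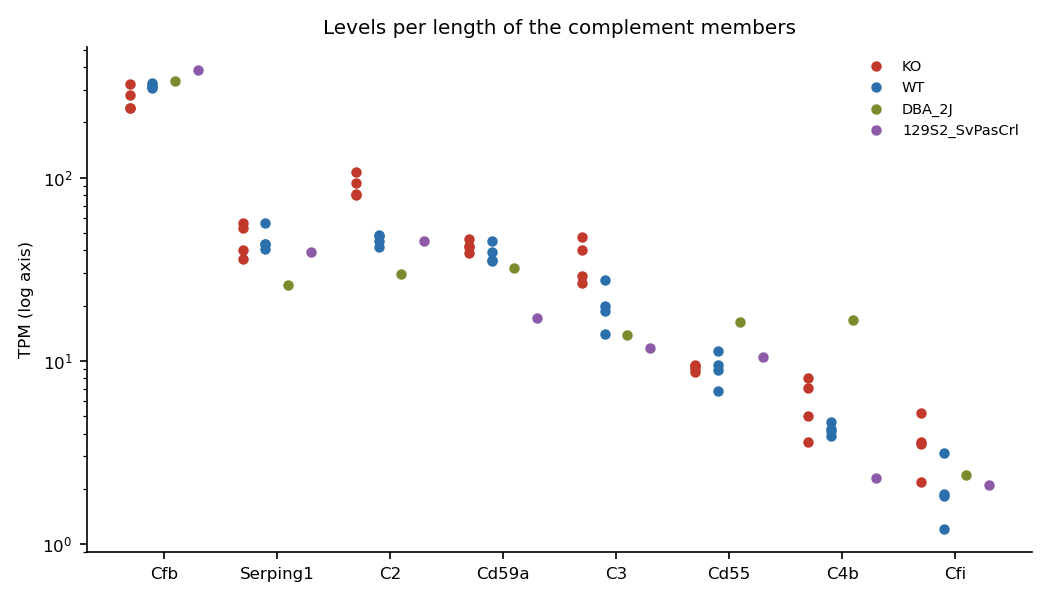
TPM of each member in every library on a log axis, ordered by the WT mean, with KO, WT, DBA_2J and 129S2_SvPasCrl side by side. Cfb lies above the other members in all 10 libraries, and C2 stands second in KO, above Serping1 and Cd59a.

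Of 54 further complement genes listed, 51 were in the files and 37 passed the filter. In KO kidneys 1 of the 37 was higher and 3 were lower, beside the 6.32% and 4.68% of all genes, and the median log2 fold change was -0.15. The terminal pathway held the clearest of these. C8a, the pore-inserting chain of C8, had 17.2, 19.8, 18.1 and 17.9 CPM in KO kidneys, against 30.4, 25.6, 30.2 and 33.5 CPM in WT kidneys. C8g, the lipocalin chain of C8, had 18.8, 17.5, 18.4 and 17.9 CPM in KO kidneys, against 26.3, 28.9, 32.3 and 31.9 CPM in WT kidneys. The groups were apart for both genes, and both calls were kept without any 1 library. C8a had a log2 fold change of -0.71 (SE 0.09) and C8g one of -0.72 (SE 0.08), with adjusted p values of 0.000619 and 0.000289 in edgeR. The remaining chain, C8b, had at most 6 reads in a library and was not tested, and C6 (log2 fold change -0.33, SE 0.55) and C7 (-0.17, SE 0.27) were not called. The median over the 4 tested terminal genes was -0.52.

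Of the 15 tested classical and lectin pathway genes 0 were called in edgeR, with a median log2 fold change of -0.03. At an unadjusted p under 0.05, 1 was higher and 4 were lower, DESeq2 called 2 lower (C1rl and C4a) and limma voom called 0. C1qa, C1qb and C1qc, chains of the recognition molecule C1q that macrophages make, had log2 fold changes of 0.14 (SE 0.14), 0.21 (SE 0.12) and -0.04 (SE 0.15). C1rl, a C1r-like protease, averaged 22.3 ± 2.60 CPM in KO kidneys and 27.4 ± 2.06 CPM in WT kidneys (SD, n = 4 each) without overlap, with an adjusted p of 0.06 in edgeR. Of the 2 other alternative pathway genes 0 were called, also at an unadjusted p under 0.05, with DESeq2 and with limma voom. Cfd, which cuts factor B and is made by fat cells, had 86.6, 67.3, 22.4 and 15.2 CPM in KO kidneys, against 38.8, 10.6, 14.3 and 63.8 CPM in WT kidneys. Its values were interleaved (log2 fold change 0.60, SE 0.61, adjusted p 0.589 in edgeR). The difference was -1.05 (adjusted p 0.448) in the animals with a leading E alone and 1.71 (adjusted p 0.0121) in those without one, and ran from 0.14 to 1.22 without 1 library. Cfp, properdin, which stabilises the alternative convertase, had a log2 fold change of -0.18 (SE 0.17).

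Among the fluid-phase regulators 0 of 4 passed the test in edgeR, DESeq2 or limma voom, and 1, Cpn1, had an unadjusted p under 0.05. Cpn1, the catalytic chain of carboxypeptidase N, which inactivates the anaphylatoxins, had 152, 71.5, 161 and 194 CPM in KO kidneys, against 67.0, 58.9, 96.8 and 93.5 CPM in WT kidneys. KO replicates 1, 3 and 4 lay above all WT values and KO replicate 2 lay among those. The log2 fold change was 0.87 (SE 0.26) with an adjusted p of 0.0523 in edgeR. Without KO replicate 2 the adjusted p was 0.00373, and without any other single library it ran from 0.0638 to 0.125. It was 0.0589 in DESeq2, 0.0879 in limma voom, 0.0495 with library totals, 0.0381 without a filter and 0.0119 with title form as a term. Within the title forms it was 0.0367 with a leading E and 0.0479 without. Clu, clusterin, which binds terminal complexes, averaged 240 ± 72.7 CPM in KO kidneys and 329 ± 98.2 CPM in WT kidneys (SD, n = 4 each, log2 fold change -0.45, adjusted p 0.232 in edgeR).

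Of 5 tested membrane regulators besides Cd55 and Cd59a, 1 was higher and 1 lower in KO, beside 6.32% and 4.68% of all genes. Cr1l, known as Crry, a rodent inhibitor of C3 convertases, had 40.5, 38.5, 33.9 and 38.2 CPM in KO kidneys, against 30.2, 33.6, 29.2 and 31.8 CPM in WT kidneys. KO replicate 3 lay just above WT replicate 2, so the groups did not overlap. The log2 fold change was 0.28 (SE 0.07, adjusted p 0.0329 in edgeR), but leaving out any of 6 of the 8 libraries ended the call, at adjusted p values from 0.0526 to 0.0924, and thinning gave 0.0808. Susd4, a membrane protein reported to restrain convertases, averaged 2.68 ± 0.20 CPM in KO kidneys and 4.45 ± 0.78 CPM in WT kidneys (SD, n = 4 each). Its log2 fold change was -0.73 (SE 0.16, adjusted p 0.0146 in edgeR, or 0.0536 without WT replicate 3), and the call was lost within each title form alone (adjusted p 0.138 with a leading E and 0.151 without). Cd59b (log2 fold change -0.15, SE 0.16) and Cd46 (0.16, SE 0.28) were not called. Of 7 tested complement receptors 0 were called in edgeR, in DESeq2, in limma voom or at an unadjusted p under 0.05, and their median was 0.11. The lowest p values among them were those of Cr2 (log2 fold change -0.48, adjusted p 0.206) and Itgb2 (0.38, adjusted p 0.313).

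**Figure D4:**
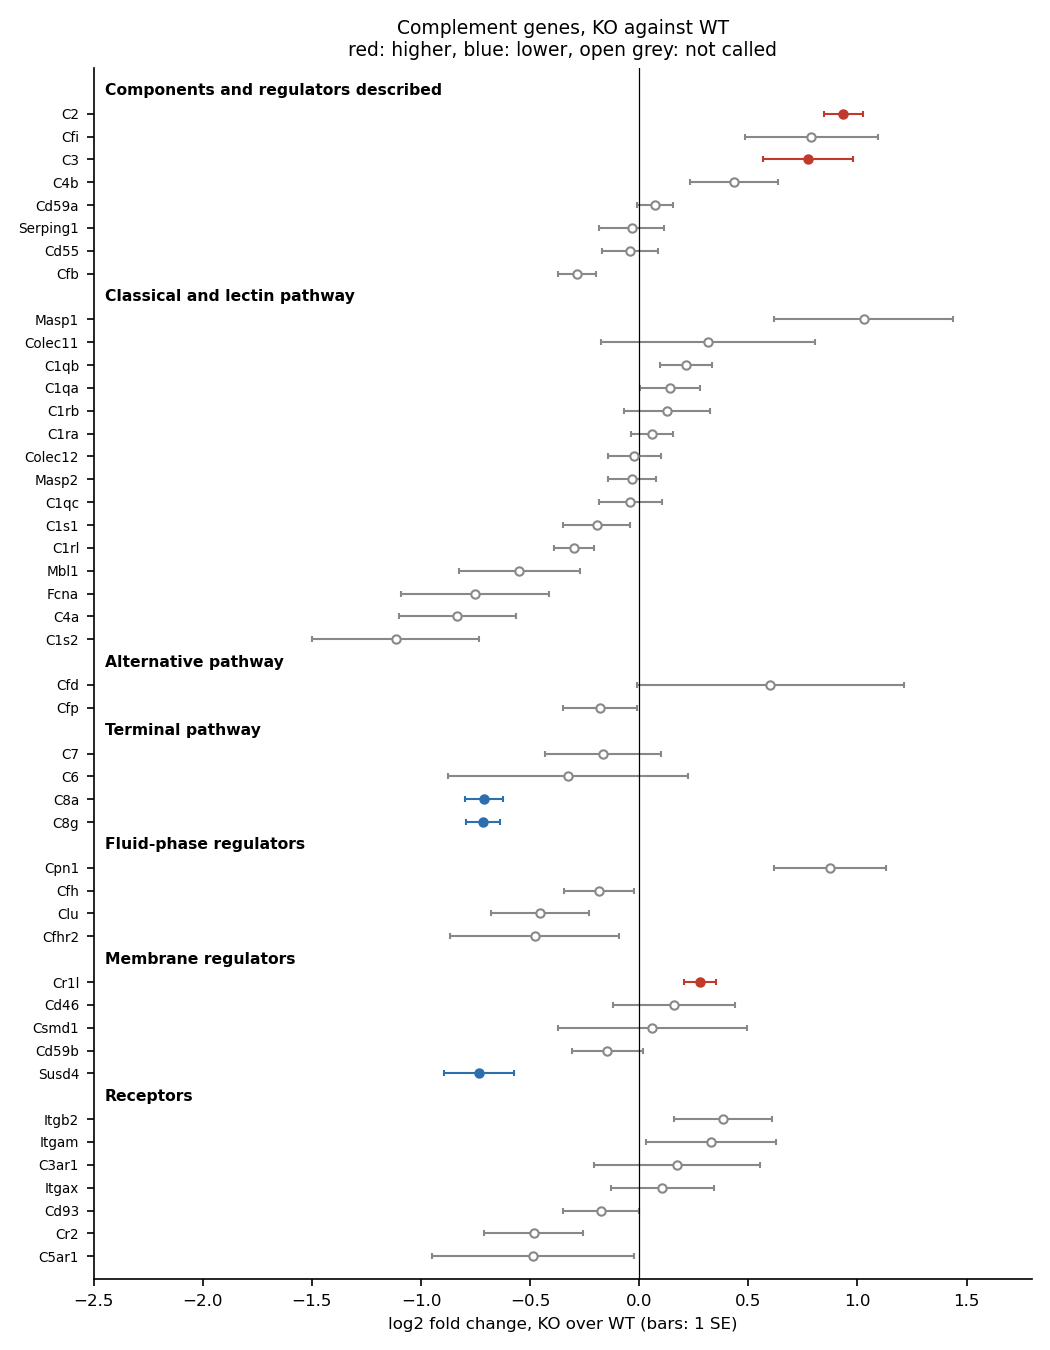
Log2 fold changes, KO over WT, of the 8 members and the 37 other tested complement genes, grouped by role and ordered by size, with bars of 1 SE. Filled red points are higher and filled blue points lower in KO at an adjusted p under 0.05. C2, C3 and Cr1l are red, C8a, C8g and Susd4 are blue, and the other 39 are open.

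Marker lists of other cell types were measured beside these differences. The lists share genes with the complement genes above: C1qa, C1qb, C1qc and Itgam in the macrophage list and Clu in the injured tubule list. In whole kidney RNA, a change in how many cells of a type there were and a change in RNA per cell cannot be told apart. The counts of called genes stand beside 6.32% higher and 4.68% lower over all genes tested. The injured tubule list had 7 of 10 tested genes higher in KO (Havcr1 at a log2 fold change of 4.60 and Sox9 at 4.23). Its summed levels were 1228 to 2068 CPM in KO and 980 to 1331 CPM in WT. Spp1 alone averaged 861 CPM in KO and 551 CPM in WT, and the median log2 fold change of the injured tubule list was 1.01. Krt18 (-0.33, adjusted p 0.162 in edgeR) and Clu (-0.45, adjusted p 0.232) went the other way and were not called. The proximal tubule list had 3 of 10 lower (Slc27a2 at -0.32 and Kap at -0.42), with sums of 32303 to 38106 CPM in KO and 42662 to 44129 CPM in WT, levels that fit the kidney label. Kap alone averaged 18784 CPM in KO and 25123 CPM in WT, and the median log2 fold change of the proximal tubule list was -0.27. Slc5a12 went the other way, at 0.43 without overlap of the groups, and was not called (adjusted p 0.0715 in edgeR). DESeq2 called 1 gene of this list higher and 4 lower, and limma voom 0 higher and 3 lower. The macrophage list had 1 of 15 higher (Cd14, 0.78) and 1 lower (Csf1r, -0.64), with sums of 155 to 179 CPM in KO and 180 to 198 CPM in WT. Csf1r alone averaged 36.7 CPM in KO and 57.3 CPM in WT, and the median log2 fold change of the macrophage list was 0.03. The hepatocyte list had 2 of 11 higher (Fgg, 1.34, and Fga, 0.61), with sums of 270 to 329 CPM in KO and 221 to 335 CPM in WT. Its median log2 fold change was -0.22, and 3 of its genes were lower at an unadjusted p under 0.05 and not called (Alb, -1.37, Apoa1, -1.07, and Serpina3k, -2.07).

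The remaining lists held fewer calls, beside the same 6.32% higher and 4.68% lower over all genes tested. T and NK cell genes had 0 of 8 called (4.57 to 7.97 CPM in KO, 3.99 to 6.998 in WT), B and plasma cell genes 0 of 5 (3.45 to 6.25 CPM in KO, 4.77 to 6.72 in WT) and neutrophil genes 0 of 2 (1.64 to 2.83 CPM in KO, 1.38 to 3.605 in WT). At an unadjusted p under 0.05, 2 T and NK cell genes were higher, 1 B cell gene was lower and 0 neutrophil genes differed. DESeq2 called 1 T and NK cell gene higher, and limma voom called 0 in these 3 lists. The neutrophil gene Mpo had no read in any of the 10 libraries. Fibroblast genes had 1 of 8 lower (Dpt, -0.71, with sums of 116 to 165 CPM in KO and 148 to 170 in WT). Endothelial genes had 1 of 8 lower (Kdr, -0.32, with sums of 178 to 274 CPM in KO and 243 to 308 in WT). The median log2 fold change was -0.17 for the fibroblast list and -0.24 for the endothelial list. At an unadjusted p under 0.05, 2 fibroblast and 3 endothelial genes were lower and 0 were higher. DESeq2 called 1 fibroblast and 2 endothelial genes lower, and limma voom called 1 lower in each list. The part that any of these cell types, or depth, had in the differences of C2, C3, C8a and C8g was not tested, apart from the thinning.

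The genes whose level varied most like a member were found over the 8 C57BL/6N libraries, after subtracting the mean of each genotype from log2 CPM. These are the highest Pearson r among 13727 genes, and points from the same library share its depth, so they are descriptions only. Among the members, C4b and Cfb varied together (r = 0.890), and so did C2 and Cfb (r = 0.881). The closest genes of all were Ovol2 (0.977) and Zc3hav1l (0.975) for C3, Amt (0.968) and Ciita (0.966) for C4b, and Olfm4 (0.990) and Aqp1 (0.980) for Cfb. For C2 they were Tshz1 (0.977) and Acad10 (0.973), and for Cfi they were Fam96a (0.985) and Comp (0.957). For the remaining members they were Hoxb5 (0.992) and Kifc2 (0.978) for Cd55, Mcm8 (0.980) and Slc35b1 (0.978) for Cd59a, and Gmfg (0.958) and Kank4 (0.950) for Serping1. The membrane regulators Cd55 and Cd59a were closest to each other among the members, at 0.656.

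The DBA_2J and 129S2_SvPasCrl kidneys came with 1 library each, so differences from WT have no replicate check on the strain side and no test. All libraries were counted on mm10, and the part that sequence differences between strains had in these counts was not tested. In the DBA_2J library 7 of the 8 members lay outside the range of the 4 WT libraries, as did 72.5% of all genes tested. Above that range were 3 members and 35.1% of all genes, and below it 4 members and 37.3% of all genes. C4b had 46.7 CPM in the DBA_2J library, against 10.8 to 12.9 CPM in WT libraries, a log2 difference of 1.99. Cd55 had 21.1 CPM there, against 8.996 to 14.7 CPM in WT libraries (0.85), and Cfb had 478 CPM, against 438 to 470 CPM (0.08). C4b was the only member to differ by 1 or more, where 4.61% of all genes were that much higher and 8.27% that much lower.

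The other members outside the WT range were lower in DBA_2J. Serping1 had 24.3 CPM in the DBA_2J library, against 38.8 to 52.5 CPM in WT libraries (-0.82). C2 had 40.5 CPM there, against 56.8 to 66.4 CPM in WT libraries (-0.62). C3 had 36.6 CPM, against 37.2 to 72.8 CPM in WT libraries (-0.49), and Cd59a had 31.0 CPM, against 34.1 to 43.2 CPM (-0.26). Cfi, at 2.56 CPM, was within the WT range of 1.29 to 3.33 CPM.

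In the 129S2_SvPasCrl library 5 of the 8 members lay outside the WT range, as did 64.7% of all genes tested. Above it were 1 member and 32.5% of all genes, and below it 4 members and 32.1% of all genes. Cd59a had 16.1 CPM in that library, against 34.1 to 43.2 CPM in WT libraries, a log2 difference of -1.20. It was the only member to differ by 1 or more, where 3.78% of all genes were that much higher and 6.00% that much lower. C4b had 6.25 CPM, against 10.8 to 12.9 CPM in WT libraries (-0.90), C3 had 30.4 CPM, against 37.2 to 72.8 CPM (-0.76), and Serping1 had 35.8 CPM, against 38.8 to 52.5 CPM (-0.26). Cfb was higher, at 534 CPM, against 438 to 470 CPM in WT libraries (0.24). C2 at 59.6 CPM, Cd55 at 13.3 CPM and Cfi at 2.18 CPM were within the WT range.

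The largest strain differences among the other tested complement genes were those of C4a and Cpn1. C4a had 72.7 CPM in the DBA_2J library and 8.46 CPM in the 129S2_SvPasCrl library, against 2.76 to 6.58 CPM in WT libraries, log2 differences of 4.08 and 0.99. C4a counts exceeded C4b counts in both strain libraries, with C4b to C4a ratios of 0.643 in DBA_2J and 0.738 in 129S2_SvPasCrl, whereas C4b exceeded C4a in every C57BL/6N library. Because the copies share sequence, how far each count belongs to its gene was not tested. Cpn1 had 2.28 CPM in the DBA_2J library and 2.99 CPM in the 129S2_SvPasCrl library, against 58.9 to 96.8 CPM in WT libraries, log2 differences of -5.05 and -4.67. C1qa, C1qb and C1qc were below the WT range in both strain libraries, with log2 differences from the WT mean of -1.38 to -0.58.

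**Figure D5:**
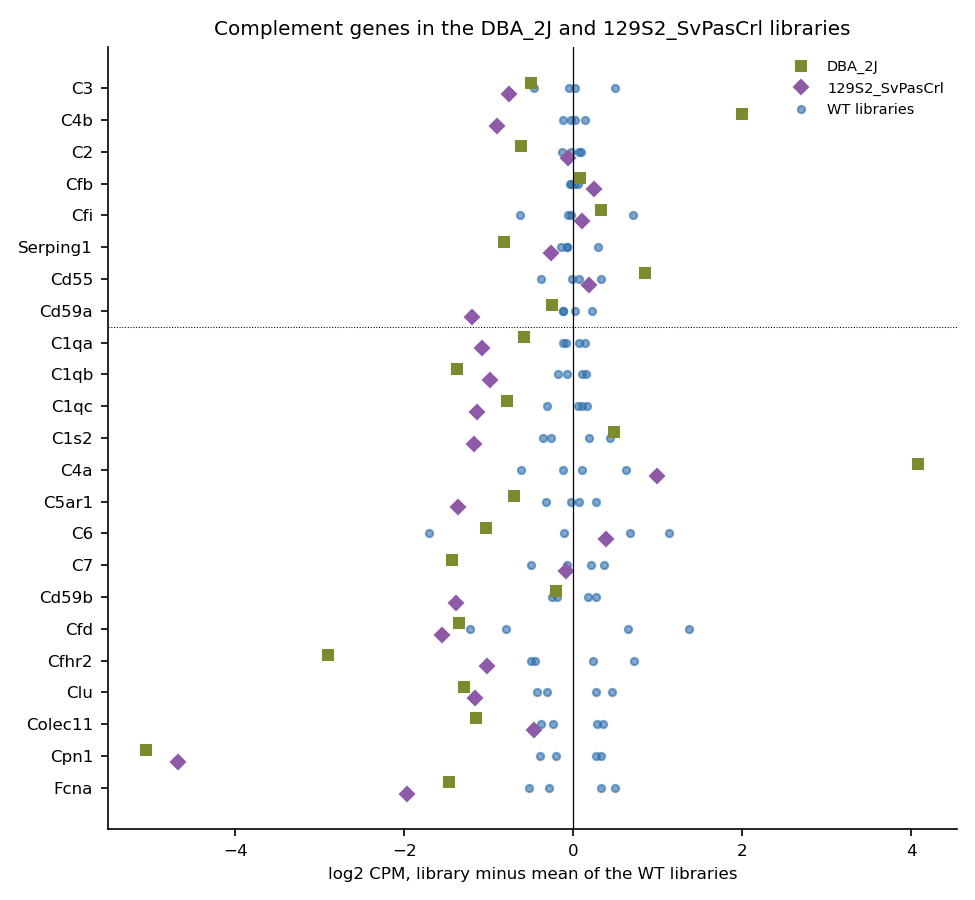
Log2 CPM of the DBA_2J library (squares), the 129S2_SvPasCrl library (diamonds) and the 4 WT libraries (circles), each minus the mean of the WT libraries. The 8 members stand above the dotted line, and below it are the 15 other tested complement genes that differed by 1 or more in either strain library, a choice made on these values. C4b in DBA_2J (1.99) and Cd59a in 129S2_SvPasCrl (-1.20) are the farthest members. The farthest points are Cpn1 in DBA_2J (-5.05) and in 129S2_SvPasCrl (-4.67), followed by C4a in DBA_2J (4.08).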

How the data were processed

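PolyA RNA of 10 kidneys was sequenced in single-end reads of 100 bases, per the labels' protocols. STAR, featureCounts, edgeR and mm10 (GRCm38) are named per the submitters' processing notes. Per the file headers, featureCounts 1.5.2 made raw counts of primary alignments per gene over exons of the UCSC mm10 annotation, without a strand option, and gave a read to each gene it overlapped. The authors also deposited log2 values for 13645 genes, which hold all 8 members and equalled voom's log2 CPM to within 4.97e-14. The log2 table was not used for tests. All 10 columns of the joined count matrix held the values of the single tables.

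Counts of the 8 C57BL/6N libraries were filtered with filterByExpr, scaled by TMM and fitted with genotype as the single term in edgeR 4.0.16 under R 4.3.3. The test was the quasi-likelihood F test, and Benjamini-Hochberg adjustment ran over 15547 genes. The SE is the log2 fold change divided by the square root of F. CPM and log2 CPM (prior count 2) used TMM over all 10 libraries, so a mean CPM ratio can differ slightly from the fitted fold. The code was tested on simulated counts. limma 3.58.1 and DESeq2 1.42.0 served as alternatives. At 19.8 to 57.3 M counts, 1 read was 0.0175 to 0.0505 CPM before scaling.

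Groups came from the labels, and the series' design gives 4 male animals per genotype. Replicates were numbered in accession order, which pairs no animals. Every 2 replicates differed by more than sampling noise, with a chi-square of at least 10.9 per degree of freedom. The first principal component (34.4% of variance) parted KO from WT. The members, lists and tests were chosen with earlier results of these data known. Named were Ehhadh, the members, every called complement gene and the 2 uncalled ones with the lowest p per list, up to 2 called genes per marker list and the 2 closest genes by variation. Any other gene named was chosen after its values were seen. Of the listed symbols, Cfhr3, Cfhr4, Cd55b, Adgre1, Trac, Jchain, Iglc2 and Ly6g were not matched.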

Additional observations from a re-analysis of the deposited data

Results flagged for a closer look

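In groups of 4 libraries, 1 library stood far from the other 3 in 3 of 90 groups looked at (the 45 tested complement genes in KO and in WT), where chance gives about 4.5. Serping1 had 52.5 CPM in WT replicate 4, against 38.8 to 40.8 CPM in the other WT libraries. Susd4 had 2.97 CPM in KO replicate 4, against 2.55 to 2.61 CPM in the other KO libraries, and Mbl1, a mannose-binding lectin, had 2.42 CPM there, against 1.56 to 1.70 CPM.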

How the results depend on the processing

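The calls of Ehhadh, C2, C8a and C8g were kept under every alternative. The median log2 fold change of all genes was -0.01 with TMM and with RLE scaling, and 0.02 with library totals. Cfb passed the threshold with DESeq2 (-0.29, adjusted p 0.0187), limma voom (-0.29, 0.0469) and title form as a term (-0.29, 0.029). It also passed in animals without a leading E alone (-0.46, 0.00115), and not in those with a leading E (-0.13, 0.543). In each of these passing settings 1 member was called lower. In edgeR with RLE scaling, library totals, no filter, a 1 CPM filter or all 10 libraries, Cfb was not called (adjusted p 0.0507 to 0.0756). Without a leading E, Cfi passed at 1.23 (0.49, not called, with a leading E), Cfd at 1.71, C4b was -0.00188, Cd55 0.13 and Serping1 0.11. With a leading E alone C3 missed the threshold at 0.81 (1 member called higher), Cd59a was -0.0496, Cfd -1.05, and 92 genes were called higher and 51 lower. The other complement genes called higher numbered 2 with library totals, without a filter and with the title form term, 3 without a leading E and 0 after thinning, and DESeq2 called 5 lower. Leaving out 1 library gave log2 fold changes of -3.40 to -3.06 for Ehhadh, 0.86 to 0.98 for C2, 0.62 to 0.97 for C3, -0.37 to -0.23 for Cfb, 0.27 to 0.61 for C4b, 0.58 to 1.11 for Cfi, -0.15 to 0.0800 for Cd55, 0.04 to 0.15 for Cd59a and -0.14 to 0.0813 for Serping1. It left 610 to 916 genes called higher and 381 to 722 lower, with 1 to 3 members higher and 0 to 1 lower, and 0 to 1 other complement genes higher and 2 to 4 lower. The causes were not tested. The member order in WT was the same per kilobase with TMM scaling. No paired analysis was possible because replicate numbers follow accession order.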

Other observations

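Hc, which encodes C5, was too low to be tested. It had 89 reads (1.64 CPM) in the DBA_2J library and 0.297 CPM in the 129S2_SvPasCrl library, against 0 to 0.248 CPM in the WT libraries and 0 to 0.0862 CPM in the KO libraries. Fcnb, a ficolin of the lectin pathway, had no read in any library. C8a had 51.0 CPM in the DBA_2J library and 18.8 CPM in the 129S2_SvPasCrl library, on either side of the WT range of 25.6 to 33.5 CPM. C8g had 18.9 CPM in the DBA_2J library and 18.3 CPM in the 129S2_SvPasCrl library, both below the WT range of 26.3 to 32.3 CPM. The 4 KO libraries had 17.5 to 18.8 CPM of C8g.

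Cfd levels were set beside fat cell genes, a list chosen after the values were seen. Adipoq, the adiponectin gene, had 4.47 to 12.7 CPM in KO and 3.09 to 15.5 CPM in WT, and 0 of the 6 listed genes were called in edgeR, DESeq2 or limma voom, with 1 lower at an unadjusted p under 0.05. The summed level of the list was 28.3 to 56.8 CPM in KO and 21.3 to 72.4 CPM in WT. Its part in the spread of Cfd was not tested.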
